A study of Mus musculus with 10 samples.

Results

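Glycolysis and the handling of its products lactate and pyruvate were followed through 36 genes in mouse retina after light damage and in controls. The genes were those on a fixed list of symbols, from glucose transporters through the glycolytic enzymes to lactate, pyruvate and regulatory genes. All 36 were found among the 19999 genes of the count table, and all 36 passed the filter on low counts. Glycolysis splits glucose into pyruvate. Pyruvate is either reduced to lactate, which monocarboxylate transporters carry across membranes, or taken into mitochondria and oxidised. The retina is known for turning much of its glucose into lactate even in the presence of oxygen, mainly in photoreceptors, while Müller glia and the retinal pigment epithelium exchange lactate with them.

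Total RNA of retina was sequenced in 10 libraries, 5 labelled as a light damage model and 5 labelled as controls. Per the series text the mice were of the albino Balb/c strain, and vehicle is part of each library's name in either group, so the controls share that handling. Neither the vehicle, the light dose and its timing, nor the age and sex of the mice could be taken from the labels. The labels do not say that replicates were separate animals. Each p-value therefore reflects only how these libraries vary, and part of that may be technical variation. The same date stands in the batch entry of every library.

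Counts totalled 17900227 to 20337329 in the light damage libraries and 14652535 to 20699236 in the control libraries. Light damage replicates 1 and 2 stood apart, with 17174 and 20414 counts of Xist, the RNA of the inactive X chromosome, against 1 to 9 in the other 8 libraries. They also held lens genes, a summed 7520 and 4015 CPM (a count relative to its library total after TMM scaling) over 9 tested genes. The other light damage libraries had 21.4 to 118 CPM of these and the controls 3.28 to 31.4 CPM. Results are therefore also given without those 2 libraries, as 3 against 5. No control had a high Xist count, so the sex of the mice, which the labels do not give, may differ between the groups. The part of sex in the contrast was not tested. The tissue label matched its markers. Rod marker genes, 13 in all, summed to 64524 to 90338 CPM in light damage and 69502 to 112613 CPM in controls, and none was at 0 in every library. Of these, 1 was called higher and 0 lower in edgeR, beside 5.32% and 7.85% of all genes tested. DESeq2 called 1 rod marker higher and 1 lower, where it called 1348 genes higher and 1539 lower over the whole table. At an unadjusted p under 0.05 in edgeR there were 3 of 13, beside 30.3% of all genes tested. Müller glia markers, 10 in all, summed to 5485 to 7717 CPM in light damage and 4164 to 5534 CPM in controls. Of these, 4 were called higher in edgeR, beside 5.32% of all genes tested. Without light damage replicates 1 and 2, 1 Müller glia marker and 0 rod markers were called higher in edgeR, beside 0.782% of all genes. The median log2 fold change of the Müller glia markers was then 0.32. In whole tissue, fewer cells of a type and less RNA per cell cannot be told apart.

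Promoter windows are shown for 4 members, because Hk2 and Pfkp fell, Ldhb rose and its partner Ldha had no call. Each window is the 250 bases before the RefSeq start (GRCm38.p6), written 5′ to 3′ on the gene's strand. Capitals mark ACGTG and GCGTG, core forms of the element bound by hypoxia-inducible factor, and TAATCC, a motif of the photoreceptor factor CRX, each searched on both strands, so that CACGT is ACGTG on the other strand. CACGTG holds ACGTG on both strands. The windows are chr6:82774455-82774704 on the minus strand for Hk2, chr13:6648772-6649021 on the minus strand for Pfkp, chr7:46845554-46845803 on the plus strand for Ldha (the first of 2 listed starts) and chr6:142507958-142508207 on the minus strand for Ldhb.
Hk2: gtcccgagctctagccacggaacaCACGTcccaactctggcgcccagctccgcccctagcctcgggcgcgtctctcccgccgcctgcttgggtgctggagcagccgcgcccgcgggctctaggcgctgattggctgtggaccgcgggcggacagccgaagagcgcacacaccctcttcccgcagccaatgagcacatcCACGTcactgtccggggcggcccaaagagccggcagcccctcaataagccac
Pfkp: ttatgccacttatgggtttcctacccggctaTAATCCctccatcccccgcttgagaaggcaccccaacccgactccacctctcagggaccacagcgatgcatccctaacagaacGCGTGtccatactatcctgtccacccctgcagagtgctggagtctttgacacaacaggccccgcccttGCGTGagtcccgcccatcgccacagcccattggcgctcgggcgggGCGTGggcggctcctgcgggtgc
Ldha: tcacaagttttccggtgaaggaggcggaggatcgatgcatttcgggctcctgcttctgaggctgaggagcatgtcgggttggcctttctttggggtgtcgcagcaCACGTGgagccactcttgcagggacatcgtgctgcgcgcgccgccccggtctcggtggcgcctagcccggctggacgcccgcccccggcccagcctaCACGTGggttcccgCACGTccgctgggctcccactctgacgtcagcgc
Ldhb: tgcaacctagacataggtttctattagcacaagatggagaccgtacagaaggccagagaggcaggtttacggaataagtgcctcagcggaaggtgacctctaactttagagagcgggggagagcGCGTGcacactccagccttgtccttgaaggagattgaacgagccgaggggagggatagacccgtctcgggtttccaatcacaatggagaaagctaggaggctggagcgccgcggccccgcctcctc
Hk2 held ACGTG at 2 places and Pfkp held GCGTG at 3 places with 1 TAATCC. Ldha held 5 matches to ACGTG, 4 of them from the 2 CACGTG sites, and Ldhb held GCGTG once. Windows were found for 33 members. Of these, 14 (42.4%) held ACGTG, against 21.2% of the 11848 windows of genes tested. GCGTG was in 18 (54.5%, against 43.8%), CACGTG in 6 (18.2%, against 8.16%) and TAATCC in 3 (9.09%, against 5.37%). The member windows were also richer in G and C, with a median of 62.8% against 59.6%. These matches are a description of letters and show no binding.

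The comparison of light damage with control asked which steps of the pathway differ in damaged retina. Of the 36 members, 4 rose (Slc2a3, Pfkm, Aldoc and Ldhb), 3 fell (Hk2, Pfkp and Pfkfb2) and 29 were not called, at an adjusted p under 0.05 from edgeR's quasi-likelihood test over 16852 genes. This was 11.1% higher and 8.33% lower, against 5.32% and 7.85% of all genes tested, or 19.4% against 13.2% in either direction. Among all genes tested, 896 were higher and 1323 lower, and scaling by library totals alone gave 1147 and 912. The median log2 fold change was 0.06 over the members and 0.00 over all genes, and the members held 2.14% to 2.23% of counts in light damage and 2.01% to 2.16% in controls. At an unadjusted p under 0.05 there were 13 members, beside 30.3% of all genes tested. The called members had log2 fold changes between -0.51 and 0.28.

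**Figure D1:**
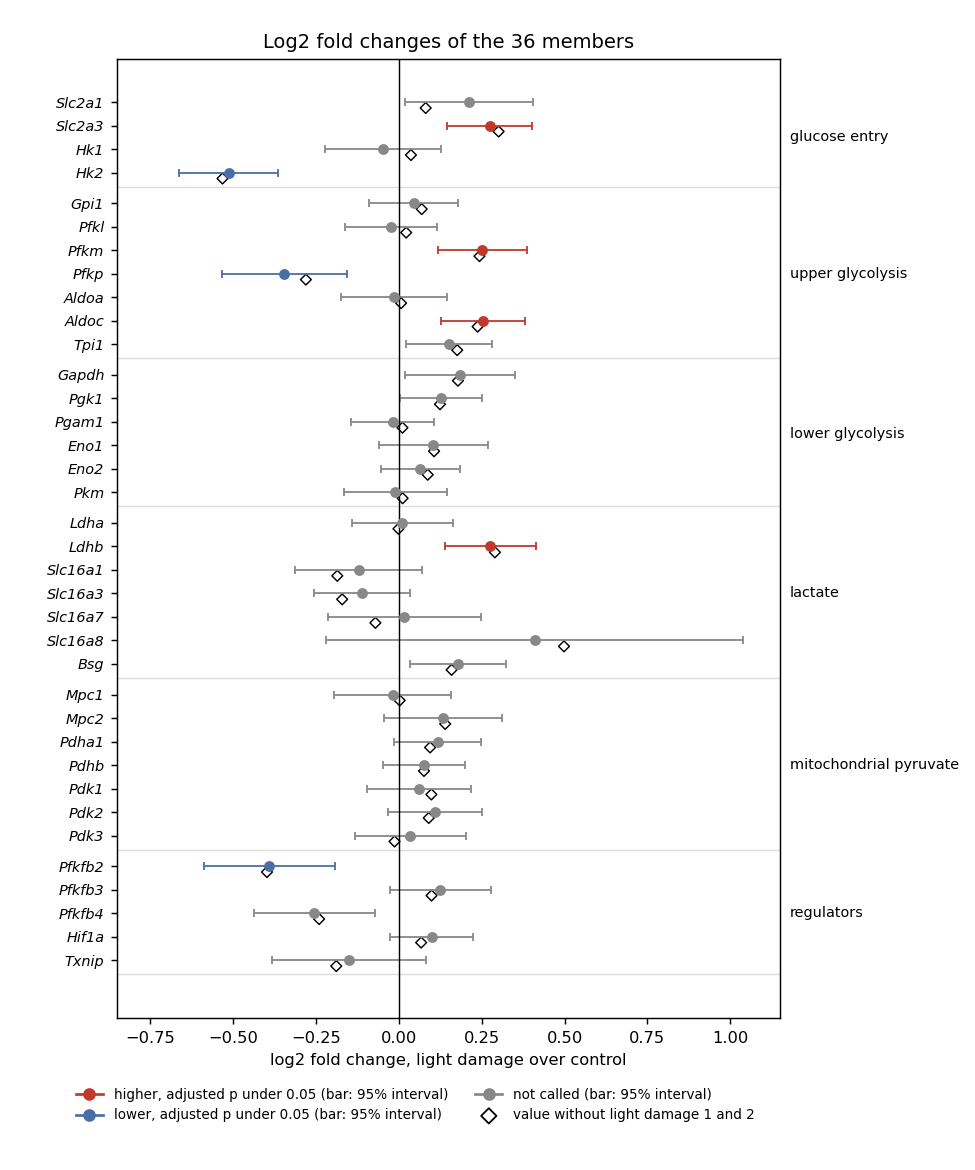
The log2 fold change of each of the 36 members, light damage over control, is shown with its 95% interval, ordered by step of the pathway and coloured by call, with open diamonds for the values without light damage replicates 1 and 2. Hk2, at -0.51, lies farthest from 0 among the called members, and 23 of the 36 are above 0, which 5 others also were under library totals alone.

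Groups did not overlap for 4 members that were higher in light damage (Slc2a3, Aldoc, Tpi1 and Ldhb) and 2 that were lower (Hk2 and Pfkp). That is beside 4.31% and 5.48% of all genes tested. Without light damage replicates 1 and 2, 1 member was called lower (Hk2) and 0 higher in edgeR, beside 1.55% and 0.782% of all genes, and 9 members had an unadjusted p under 0.05, beside 20.7% of all genes. DESeq2 on those 8 libraries, a setting chosen after seeing the data, called 3 members higher (Slc2a3, Aldoc and Ldhb) and 2 lower (Hk2 and Pfkfb2). No DESeq2 share over all genes is at hand for those libraries, so these counts have no background beside them. On all 10 libraries DESeq2 called 1348 genes higher, where edgeR called 896.

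The largest fall among the members was in Hk2, a hexokinase that traps glucose in the cell by phosphorylation and is known in retina mainly from photoreceptors. Its level was 325, 327, 283, 305 and 357 CPM in the light damage libraries, against 432, 457, 437, 442 and 512 CPM in the control libraries. Every light damage library lay below every control. The means were 319 ± 27.8 CPM in light damage and 456 ± 32.6 CPM in controls (SD, n = 5 each), and the log2 fold change was -0.51 (SE 0.0705, adjusted p = 0.000862, edgeR). Hk2 was called in all 10 fits that left out 1 library. Without light damage replicates 1 and 2 its log2 fold change was -0.53 (adjusted p = 0.0187, edgeR). The 13 rod markers had a median log2 fold change of -0.14, with 10 of them negative, and their summed level was 83012, 77729, 64524, 90338 and 82505 CPM in light damage, against 98133, 87501, 69502, 112613 and 88203 CPM in controls. The part of rod content in the level of Hk2 was not tested.

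Hk1, the hexokinase found in most cells, had 1053 to 1333 CPM in light damage and 1142 to 1473 CPM in controls, and the groups overlapped. Its log2 fold change of -0.05 turned to 0.04 without light damage replicates 1 and 2, and it was not called. Among the glucose transporters, Slc2a3 (GLUT3, the neuronal transporter) had 97.8, 107, 114, 99.6 and 108 CPM in light damage, against 83.6, 88.6, 87.4, 80.1 and 95.9 CPM in controls. All light damage libraries were above all controls, and Slc2a3 rose by 0.27 on the log2 scale (SE 0.0611, adjusted p = 0.00966, edgeR). Leaving out light damage replicates 1 and 2 gave 0.30 and the call was lost (adjusted p = 0.0513, edgeR).

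Slc2a1 (GLUT1, which brings glucose in from the blood) had 311, 271, 240.3, 229 and 235 CPM in light damage, against 218, 200.3, 200.4, 235 and 258 CPM in controls. Only light damage replicates 1 and 2 lay above the control range, and Slc2a1 was not called (log2 fold change 0.21, adjusted p = 0.132, edgeR). Without those replicates its log2 fold change was 0.08.

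**Figure D2:**
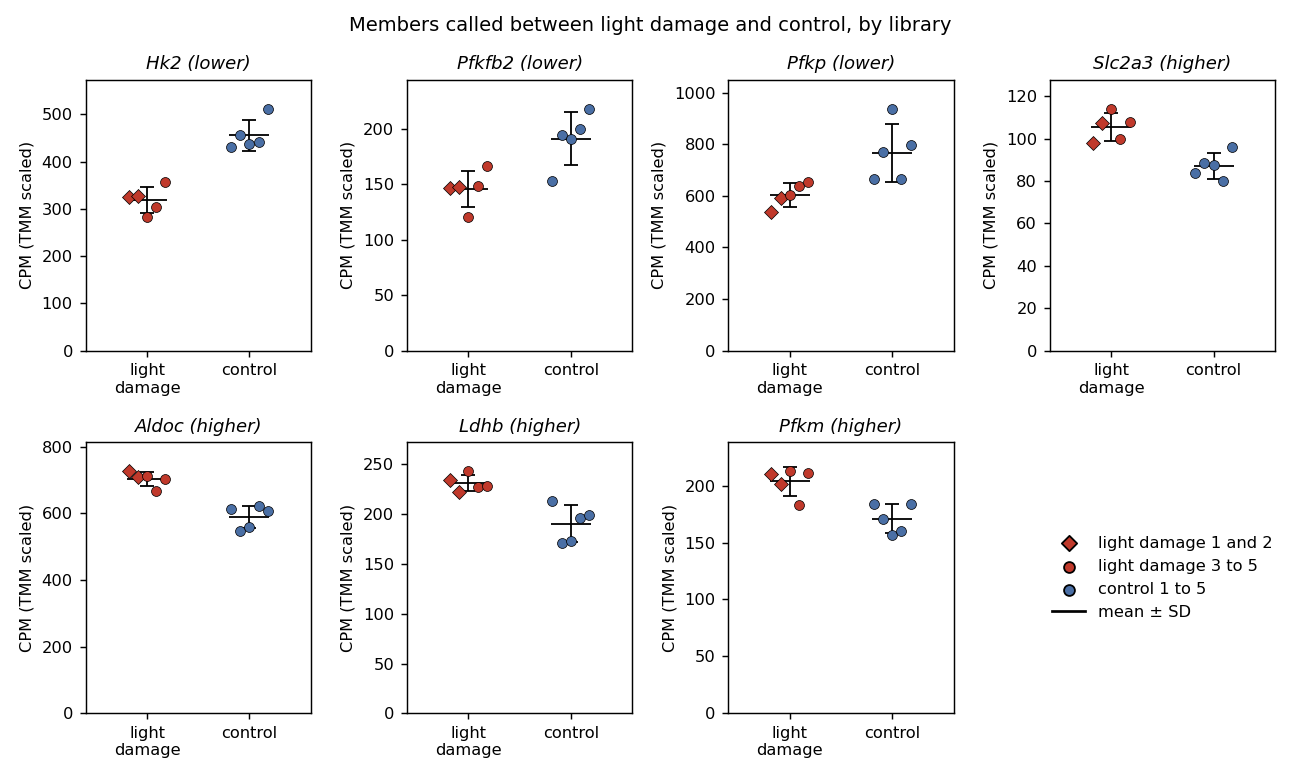
Levels of the 7 called members in each library are shown in CPM from 0, light damage left of control, with the mean and SD (n = 5 each) and diamonds for light damage replicates 1 and 2. The groups do not overlap for Hk2, Pfkp, Slc2a3, Aldoc and Ldhb, and they overlap for Pfkfb2 and Pfkm.

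In upper glycolysis, 2 of the 3 subunits of phosphofructokinase, the enzyme at the committed step, moved in opposite directions. Pfkp, the platelet-type subunit, had 536, 592, 603, 638 and 653 CPM in light damage, against 666, 769, 938, 667 and 798 CPM in controls. The groups were separate, but the gap between the highest light damage library and the lowest control was small. Pfkp fell by 0.34 on the log2 scale (SE 0.0897, adjusted p = 0.0205, edgeR). Its call was lost in each fit without light damage replicate 1, 2 or 3 (adjusted p up to 0.0620, edgeR), with both replicates 1 and 2 left out (log2 fold change -0.28, adjusted p = 0.165, edgeR) and under scaling by library totals alone.

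Pfkm, the muscle-type subunit, had 210.3, 201, 212, 183 and 211 CPM in light damage, against 184, 170.5, 156, 160.5 and 184 CPM in controls. Light damage replicate 4 fell within the control range and the other 4 lay above it. Pfkm rose by 0.25 on the log2 scale (SE 0.0639, adjusted p = 0.0180, edgeR), and its call was lost without light damage replicate 1 or 3 (adjusted p up to 0.0522, edgeR) and without replicates 1 and 2 together (adjusted p = 0.117, edgeR). Pfkl, the liver-type subunit, had 470.2 to 554 CPM in light damage and 465 to 545 CPM in controls and was not called.

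Aldolase splits the phosphorylated sugar into 2 smaller ones. Aldoc, the brain form, had 726, 708, 711, 667 and 702 CPM in light damage, against 613, 547, 558, 621 and 606 CPM in controls. The groups were separate. Aldoc rose by 0.26 on the log2 scale (SE 0.0599, adjusted p = 0.0125, edgeR), and the value was 0.24 without light damage replicates 1 and 2 (adjusted p = 0.112, edgeR). Aldoa, the more abundant form here, had a mean of 2790.4 ± 158 CPM in light damage, against 2818 ± 238 CPM in controls (SD, n = 5 each), and was not called. Its symbol belongs to a second identifier, which had 183 to 359 counts in a library and was not added. Gpi1 and Tpi1, which interconvert sugars before and after that split, were not called (log2 fold changes 0.05 and 0.15), although Tpi1 was higher in every light damage library than in any control (887 to 950.3 CPM against 752 to 867 CPM).

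None of the 6 members of lower glycolysis was called in edgeR, beside 13.2% of all genes tested. At an unadjusted p under 0.05 there were 2 of 6 (Gapdh and Pgk1), beside 30.3% of all genes tested. DESeq2 called 1 (Pgk1) higher, where it called 1348 genes higher over the whole table. Pkm, the pyruvate kinase of the last step, had 3456, 3392, 3283, 3751 and 3599.7 CPM in light damage, against 3692, 3455, 3132, 3798 and 3524 CPM in controls. The groups covered each other, and the 95% interval of the log2 fold change ran from -0.17 to 0.15. Gapdh had a mean of 618 ± 46.2 CPM in light damage, against 543 ± 59.4 CPM in controls, a log2 fold change of 0.19 (adjusted p = 0.124, edgeR). Pgk1, Pgam1, Eno1 and Eno2 had log2 fold changes of 0.13, -0.02, 0.10 and 0.07. Eno1 has a near-identical copy, Eno1b, with 573 to 989 counts in a library against 39213 to 65298 for Eno1, and the labels do not say how reads common to both were assigned.

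**Figure D3:**
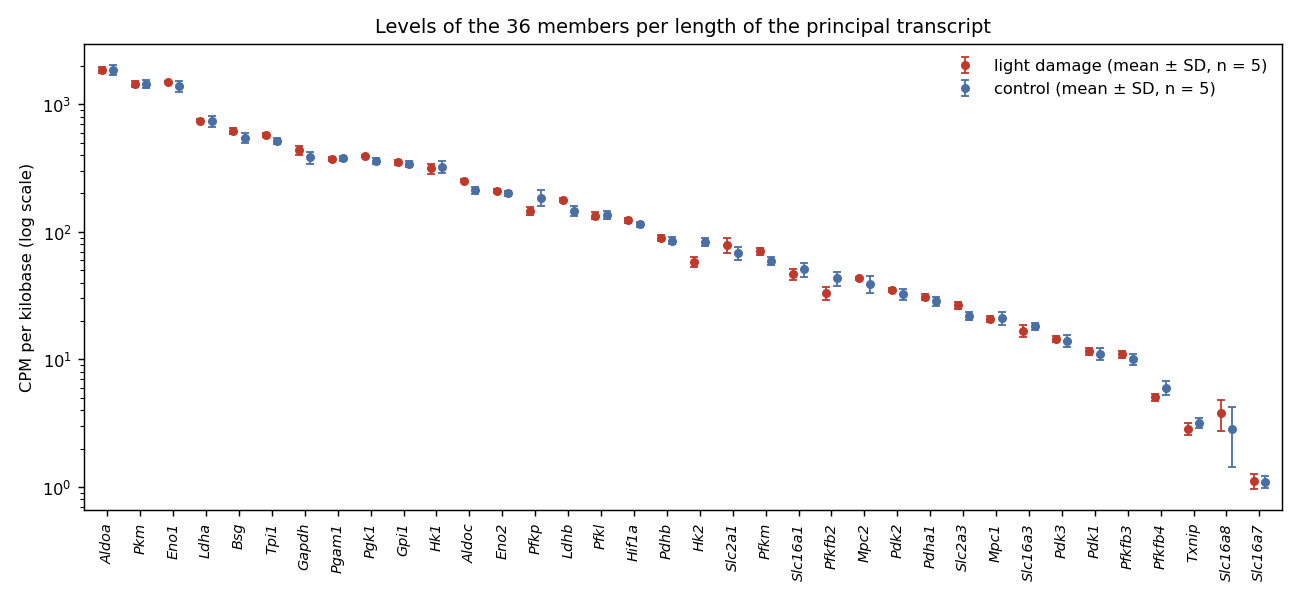
Mean level of each member in CPM per kilobase of transcript is plotted on a log axis for light damage and for control. Aldoa, Pkm and Eno1 stand highest and Slc16a7 lowest in both groups.

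Per kilobase of transcript, Aldoa (1847 CPM per kb in light damage and 1865 CPM per kb in controls), Eno1 (1488 and 1384 CPM per kb) and Pkm (1438 and 1447 CPM per kb) were the most abundant members, then Ldha (742 and 737 CPM per kb). Hk2 was far below Hk1 on the same scale. It had 57.9 ± 5.05 CPM per kb in light damage and 82.7 ± 5.91 CPM per kb in controls, where Hk1 had 314 ± 28.7 and 324 ± 34.8 CPM per kb in the same order of groups.

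Lactate dehydrogenase is built from A and B subunits. Ldhb, the subunit associated with turning lactate to pyruvate, had 234, 222, 243, 227 and 228 CPM in light damage, against 213, 171, 173, 197 and 199 CPM in controls. All light damage libraries were above all controls. Ldhb rose by 0.28 on the log2 scale (SE 0.0654, adjusted p = 0.0131, edgeR), and the value was 0.29 without light damage replicates 1 and 2 (adjusted p = 0.0777, edgeR). Ldha, the subunit associated with making lactate, had 1315, 1339, 1266, 1280.5 and 1349 CPM in light damage, against 1364, 1219, 1136, 1464 and 1323 CPM in controls. The light damage libraries all lay inside the control range, and the 95% interval of the log2 fold change of Ldha was -0.14 to 0.16.

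The rise of Slc2a3, Pfkm, Aldoc and Ldhb stood beside higher Müller glia markers in light damage. All 10 markers had a positive log2 fold change, with a median of 0.34, and none was at 0 in every library. Their summed level was 7717, 7220.4, 7643, 5485 and 5781 CPM in light damage, against 5053, 5263, 4164, 4890.2 and 5534 CPM in controls. Light damage replicate 4 lay within the control range and the other 4 lay above it. Microglia markers summed to 69.5 to 128 CPM in light damage and 53.9 to 71.1 CPM in controls, with none at 0 in every library. In edgeR 1 of 8 was called higher, beside 5.32% of all genes tested, and 0 were without light damage replicates 1 and 2. All 8 had a positive log2 fold change, with a median of 0.55, and 6 had an unadjusted p under 0.05 in edgeR, beside 30.3% of all genes tested. The part of these markers in the rise of the 4 members was not tested.

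Of the lactate transporters, Slc16a1 (MCT1), Slc16a3 (MCT4) and Slc16a7 (MCT2) had log2 fold changes of -0.12, -0.11 and 0.02, and none was called. Slc16a8 (MCT3, known from the retinal pigment epithelium) had 4.65 to 9.58 CPM in light damage and 3.55 to 9.60 CPM in controls. Among the settings run it was called only in the fit without control replicate 3 (log2 fold change 0.77, adjusted p = 0.0205, edgeR). That library held the highest pigment epithelium marker sum of the controls, 134 CPM where the others had 55.9 to 110.3 CPM. The light damage libraries had 111 to 251 CPM of those markers, and their part in the level of Slc16a8 was not tested. Bsg, the membrane partner of MCT1, MCT3 and MCT4, had a mean of 942 ± 43.3 CPM in light damage, against 833 ± 69.1 CPM in controls (log2 fold change 0.18, adjusted p = 0.0909, edgeR). Bsg was called by DESeq2, under scaling by library totals alone and without control replicate 4 (adjusted p = 0.0446, edgeR).

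None of the 7 members that carry pyruvate into mitochondria, oxidise it or restrain that step was called by edgeR or by DESeq2. In edgeR 13.2% of all genes tested were called. At an unadjusted p under 0.05 in edgeR there were 0 of the 7, beside 30.3% of all genes tested. Of the 7, 6 had a positive log2 fold change, beside 50.3% of all genes tested. Their summed level was 448 to 468 CPM in light damage and 415 to 442 CPM in controls, and these ranges did not overlap. Singly, each of the 7 overlapped between the groups, and no share over all genes is at hand for such a sum. The sums of the other member steps and of the regulators overlapped. Among the neighbouring lists counted below, the pentose phosphate and tricarboxylic acid cycle sums did not overlap, and the others did. Pdk1, a kinase that switches pyruvate dehydrogenase off, had 53.9, 61.6, 58.9, 60.8 and 64.45 CPM in light damage, against 57.1, 53.3, 64.3, 49.3 and 62.9 CPM in controls. The groups overlapped, with a log2 fold change of 0.06 (95% interval -0.09 to 0.22). The carrier subunits Mpc1 and Mpc2 had log2 fold changes of -0.02 and 0.13 (Mpc2 was called without control replicate 1, adjusted p = 0.0358, edgeR), and the enzyme subunits Pdha1 and Pdhb 0.12 and 0.08. The kinases Pdk2 and Pdk3 had 0.11 and 0.04.

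Among the regulators, Pfkfb2 makes and degrades the sugar phosphate that activates phosphofructokinase. It had 147, 148, 121, 148 and 166 CPM in light damage, against 153, 195, 191, 200.2 and 218 CPM in controls. The groups overlapped through light damage replicate 5 and control replicate 1. Pfkfb2 fell by 0.39 on the log2 scale (SE 0.0929, adjusted p = 0.0152, edgeR) and was called in all 10 fits that left out 1 library. Leaving out light damage replicates 1 and 2 gave -0.40 (adjusted p = 0.0914, edgeR). Its relatives Pfkfb3 and Pfkfb4 had log2 fold changes of 0.13 and -0.26 and were not called (adjusted p = 0.252 and 0.0599, edgeR). Without control replicate 1, Pfkfb4 was called lower (adjusted p = 0.0182, edgeR).

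Hif1a, the oxygen-regulated subunit of the factor that drives many glycolytic genes, had 599, 600.4, 554, 599.8 and 544 CPM in light damage, against 535, 583, 526, 538 and 522 CPM in controls. The groups overlapped (log2 fold change 0.10, adjusted p = 0.266, edgeR), and the protein, through which oxygen acts on this factor, was not measured. Txnip, which restrains glucose uptake, had 8.22, 8.43, 8.94, 6.81 and 7.57 CPM in light damage, against 8.45, 9.26, 7.97, 8.88 and 9.94 CPM in controls. It was not called either (log2 fold change -0.15, adjusted p = 0.371, edgeR).

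The balance between isozymes was compared within each library as the ratio of their counts, which does not depend on scaling between libraries. Of 6 ratios, 4 differed by an exact two-sided permutation test adjusted over the 6. Those 4 have as numerator a member called above in the same libraries (Hk2, Pfkp, Aldoc and Ldhb). The denominator Pfkm was also called, in the other direction from Pfkp. The ratios therefore restate those calls within libraries and are no separate support for them. Pfkp to Pfkl was not tested. Pfkp to Pfkm was 2.55, 2.94, 2.84, 3.49 and 3.09 in light damage, against 3.63, 4.51, 6.003, 4.16 and 4.34 in controls. Each light damage library lay below each control, and the difference of mean log2 ratios was -0.59 (exact p = 0.00794, the smallest that 5 against 5 allows, adjusted p = 0.0159). It was -0.51 without light damage replicates 1 and 2 and no longer passed (adjusted p = 0.0536, exact permutation test).

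Hk2 to Hk1 was 0.309, 0.284, 0.221, 0.249 and 0.268 in light damage, against 0.366, 0.3598, 0.297, 0.374 and 0.448 in controls. Light damage replicate 1 lay above control replicate 3, and the difference of mean log2 ratios was -0.47 (exact permutation p = 0.0159, adjusted p = 0.0238). Aldoc to Aldoa was 0.225 to 0.274 in light damage and 0.200 to 0.218 in controls, and Ldhb to Ldha was 0.166 to 0.192 in light damage and 0.134 to 0.156 in controls. Neither pair of groups overlapped, and both mean log2 ratios were higher by 0.27 in light damage (exact permutation p = 0.00794, adjusted p = 0.0159 for each). Eno2 to Eno1 and Slc2a3 to Slc2a1 differed by -0.05 and 0.07 (exact permutation p = 0.484 and 0.611).

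**Figure D4:**
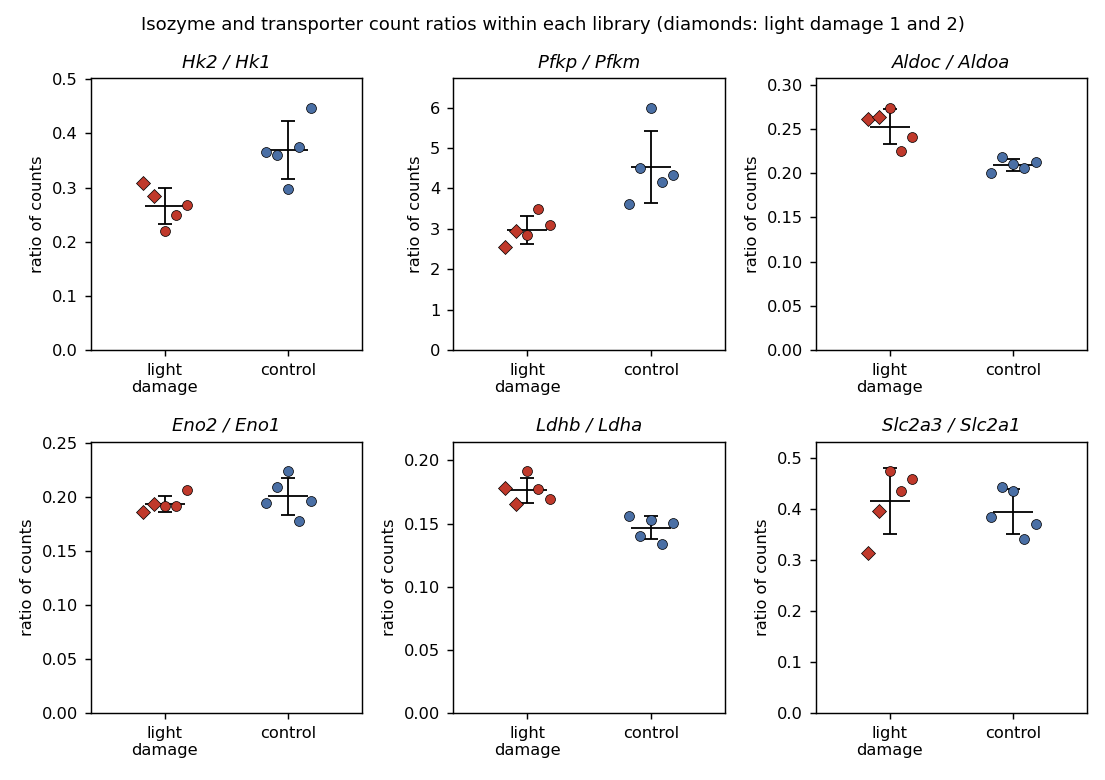
Count ratios of 6 isozyme pairs are shown for each library from 0, light damage left of control, with the mean and SD (n = 5 each) and diamonds for light damage replicates 1 and 2. The groups are separate for Pfkp to Pfkm, Aldoc to Aldoa and Ldhb to Ldha.

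Pathways that branch from glycolysis were counted from lists chosen with earlier results of these data known. In edgeR, 5.32% of all genes tested were called higher and 7.85% lower, and 50.3% had a positive log2 fold change. DESeq2 called more genes over the whole table, 1348 higher and 1539 lower, where edgeR called 896 and 1323. The DESeq2 counts of each list below stand beside those larger numbers. No share of genes tested is at hand for DESeq2, and the percentages below are those of edgeR. In the pentose phosphate pathway, which makes NADPH, 1 of 8 genes (12.5%) rose and 0 fell in edgeR, and DESeq2 called 2 higher and 0 lower. This was Tkt, transketolase, at 364 ± 32.8 CPM in light damage and 271 ± 16.96 CPM in controls (SD, n = 5 each), a rise of 0.42 on the log2 scale (SE 0.0691, adjusted p = 0.00221, edgeR). Tkt kept its call without light damage replicates 1 and 2 (log2 fold change 0.36, adjusted p = 0.0340, edgeR). In the tricarboxylic acid cycle, which oxidises what pyruvate brings into mitochondria, 4 of 17 genes (23.5%, against 5.32% of all genes) rose and 0 fell in edgeR. All 17 had a positive log2 fold change, against 50.3% of all genes, with a median of 0.16. DESeq2 called 7 higher and 0 lower. Pcx, the carboxylase that feeds pyruvate into the cycle, rose by 0.31 (adjusted p = 0.00771, edgeR), and its call was lost without light damage replicates 1 and 2 (adjusted p = 0.0825, edgeR). The succinate dehydrogenase subunits Sdhb and Sdhd rose by 0.17 and 0.20, and the succinate ligase subunit Suclg1 by 0.21 (adjusted p = 0.0439, 0.0479 and 0.0471, edgeR). Each of these 3 lost its call without any 1 of the light damage libraries and without control replicate 2, 3 or 5, and Sdhd also without control replicate 1.

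Of 9 genes of the NADH shuttles, Mdh1 rose by 0.22 (adjusted p = 0.0283, edgeR) and 0 fell, that is 11.1% higher, against 5.32% of all genes, and DESeq2 called 2 higher and 0 lower. The call of Mdh1 was lost without light damage replicate 1, 2, 3 or 4 or control replicate 2 or 3 (adjusted p up to 0.0722, edgeR). Of 10 glycogen genes, 3 (30.0%, against 5.32% of all genes) rose and 0 fell in edgeR, and DESeq2 called 5 higher and 0 lower. Pygb, Gyg and Pygl rose by 0.28, 0.27 and 0.70 (adjusted p = 0.0241, 0.0251 and 0.0439, edgeR). Pygl had a mean of 20.8 ± 7.19 CPM in light damage, against 12.8 ± 0.767 CPM in controls, and its log2 fold change without light damage replicates 1 and 2 was 0.31. The call of Gyg was lost without light damage replicate 1, 2 or 3, that of Pygb without light damage replicate 1 or 3 or control replicate 3 or 4, and that of Pygl without light damage replicate 2 or 3 or any 1 of the controls (adjusted p up to 0.0767, 0.0765 and 0.0938, edgeR). Of 19 tested genes of the hypoxia-inducible factor pathway, which include Hif1a, 1 (5.26%, against 5.32% of all genes) rose and 2 (10.5%, against 7.85%) fell in edgeR. DESeq2 called 1 higher and 5 lower, adding Epas1, Egln1 and Hif1an to the lower genes, which are named here after their values were seen. Arnt, the partner subunit of Hif1a, fell by 0.26 (adjusted p = 0.0102, edgeR), Ero1l, an oxidase of the endoplasmic reticulum, fell by 0.25 (adjusted p = 0.0239, edgeR), and Vhl, which marks Hif1a for degradation, rose by 0.23 (adjusted p = 0.0359, edgeR). The call of Ero1l was lost without light damage replicate 1, 2, 3 or 4 or control replicate 5, and that of Vhl without light damage replicate 1, 2, 3 or 4 or control replicate 3 or 5 (adjusted p up to 0.0637 and 0.0865, edgeR). The median log2 fold change of this list was -0.08.

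Of other isozymes and partners, 20 of 26 listed genes were tested and 0 were called by edgeR or DESeq2, where edgeR called 13.2% of all genes tested. At an unadjusted p under 0.05 in edgeR there were 4 of 20, beside 30.3% of all genes tested. Of all genes in these lists, Tkt alone was called by edgeR without light damage replicates 1 and 2.

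**Figure D5:**
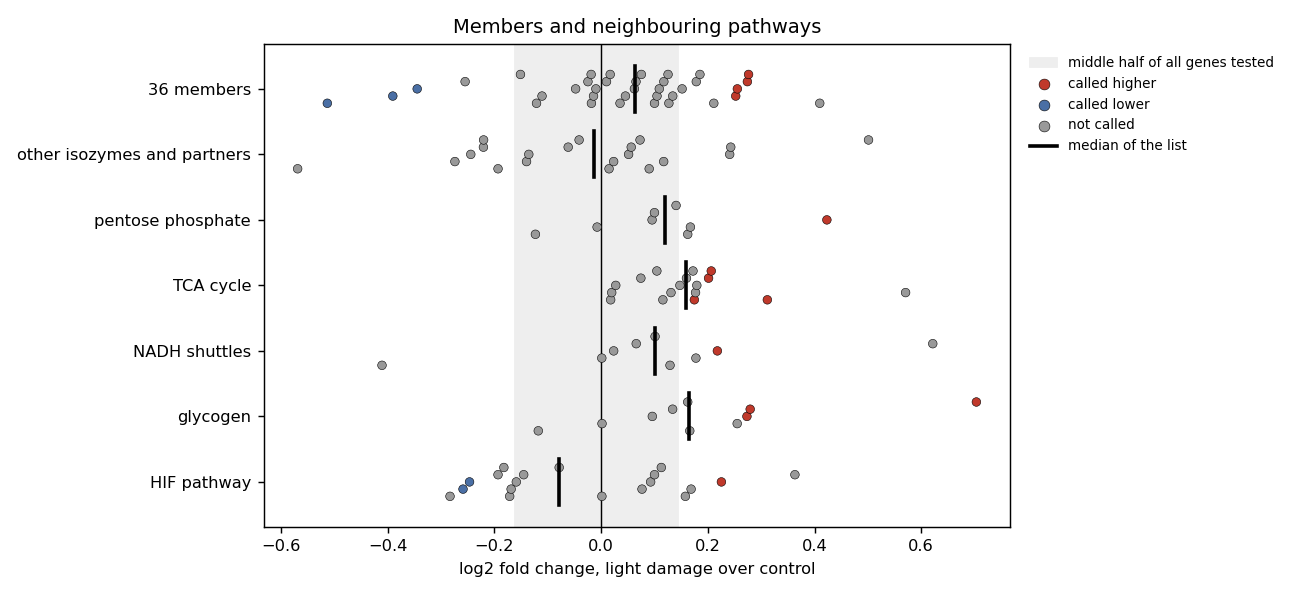
Each point is the log2 fold change of a gene, light damage over control, for the 36 members and 6 neighbouring lists, with the list median as a bar and the middle part of all genes (-0.16 to 0.14) shaded. The tricarboxylic acid cycle lies to the right of 0 for all 17 genes.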

How the data were processed

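The data are whole-number counts per gene for 10 retina libraries, as deposited by the authors, for 19999 genes. Groups and replicate numbers came from the titles. GRCm39, RSEM 1.3.1, Bowtie2 and DESeq2 1.4.5 are named, in no stated role, per the submitters' processing notes. Neither rounding of estimates nor the use of strand is recorded for the deposited counts. Ensembl identifiers were given symbols from GENCODE M21 (19892 matched), and a symbol with 2 identifiers was taken from the lower one. Promoter windows came from RefSeq on GRCm38.p6, which is not the build of the notes, and transcript lengths from GENCODE.

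Tests were run with edgeR 4.0.16 and DESeq2 1.42.0 under R 4.3.3, with limma 3.58.1 loaded. Plots were made in Python 3.11.15 with matplotlib 3.10.9. filterByExpr kept 16852 genes, 99.804% to 99.924% of the counts of a library. The main test was edgeR's quasi-likelihood test with TMM scaling, no term but group, and p-values adjusted by Benjamini-Hochberg across the 16852 genes, with a call at an adjusted p under 0.05. Standard errors came from its F statistic. The script was tested on simulated data with changes of 1.5, 2 and 4 times. It recovered 85.1%, 98.5% and 98.5% of these, with 11 false calls among 16698 genes. The largest change among the called members, in Hk2, was 1.43 times, so recovery of changes as small as those called was not tested. Ratios were tested by exact permutation over libraries, adjusted over 6. The smallest two-sided exact p is 0.00794 for 5 against 5 and 0.0179 for 3 against 5. Library pairs were checked for duplicates, and the lowest chi-square per degree of freedom over 45 pairs was 6.08.

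The members and lists were chosen with earlier results of these data known. Values in every library are given for each called member and for Slc2a1, Hk2, Pkm, Ldha, Pdk1, Hif1a and Txnip, and called genes are named for each pathway list, at most 4 in each direction. Alternatives were other scalings, other filters, DESeq2, a block for the replicate number, and fits without single libraries or without light damage replicates 1 and 2.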

Additional observations from a re-analysis of the deposited data

Results flagged for a closer look

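In 6 of 84 groups of 5 libraries, 1 library stood far from the other 4 by Dixon's test, which chance does in about 1 of 20 groups. Light damage replicate 3 had 692 CPM of Pgk1, where the other light damage libraries had 714 to 721 CPM. Control replicate 3 had 177 CPM of Slc16a1, where the other controls had 230.4 to 249 CPM, and 9.60 CPM of Slc16a8, where the others had 3.55 to 4.44 CPM. Control replicate 2 had 14.3 CPM of Slc16a7, where the others had 11.1 to 11.7 CPM, and 583 CPM of Hif1a, where the others had 522 to 538 CPM. Control replicate 5 had 23.98 CPM of Pdk3, where the others had 29.8 to 32.0 CPM.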

How the results depend on the processing

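The 7 called members were also called under DESeq2 size factors in edgeR and under both other filters. Library totals alone kept 6 of them, lost Pfkp and added Bsg, and over all genes gave 1147 higher and 912 lower calls, against 896 and 1323 in the main fit. DESeq2 kept all 7 and called 7 members higher, adding Tpi1, Pgk1 and Bsg, with 1348 genes higher over the table. Without light damage replicates 1 and 2, 0 members were called higher and 1 lower, with 135 genes higher and 268 lower. DESeq2 on those libraries, chosen after seeing the data, called 3 members higher and 2 lower, with no count over all genes to set beside them. Leaving out 1 library at a time gave 3 to 5 members higher and 2 to 4 lower, with 399 to 1347 genes higher and 723 to 1644 lower. The counts over all genes moved by over 1.5 times without light damage replicate 1 (440 higher, 723 lower), 2 (481, 825) or 3 (399, 728) and without control replicate 1 (1347 higher) or 5 (590 higher, 865 lower).

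Same-numbered libraries correlated by 0.0522 to 0.316 in their deviations from the group means, and 5 of 10 matched their own number best. The labels state no pairs and the main test used none. Whether the numbers mark pairs was not tested. With the replicate number as a block, 8 members were called (the 7 and Pfkfb4). Over all genes the block gave 1431 higher and 1854 lower, against 896 and 1323 in the main fit. As 5 pairs, the ratios Hk2 to Hk1 (-0.47), Pfkp to Pfkm (-0.59), Aldoc to Aldoa (0.27) and Ldhb to Ldha (0.27) had an exact sign-flip p of 0.0625, the smallest that 5 pairs allow. Pfkp to Pfkm without light damage replicates 1 and 2 was -0.51.

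Signs turned for 9 members near 0, none of them called. Under library totals alone the log2 fold changes were 0.000263 for Pfkl, 0.0139 for Aldoa, 0.00897 for Pgam1, 0.0189 for Pkm and 0.00973 for Mpc1. Without light damage replicates 1 and 2 they were 0.0367 for Hk1, 0.0223 for Pfkl, 0.00696 for Aldoa, 0.011 for Pgam1, 0.0116 for Pkm, -0.0010 for Ldha, -0.0705 for Slc16a7, 0.00277 for Mpc1 and -0.0128 for Pdk3. Leaving out 1 library gave ranges of -0.0852 to 0.0176 for Hk1, -0.0651 to 0.0037 for Pfkl, -0.0535 to 0.0228 for Aldoa, -0.044 to 0.00229 for Pgam1, -0.0495 to 0.0249 for Pkm, -0.0355 to 0.0621 for Ldha, -0.0295 to 0.0908 for Slc16a7, -0.0669 to 0.0494 for Mpc1 and -0.029 to 0.0709 for Pdk3. The cause of these changes was not tested.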

Other observations

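Several abundant enzymes varied more among the controls than among the light damage libraries. Eno1 had a mean of 3017 ± 53.7 CPM in light damage, against 2806 ± 299 CPM in controls, and Ldha 1310.2 ± 36.1 CPM in light damage, against 1301 ± 128 CPM in controls (SD, n = 5 each). The SD relative to the mean was smaller in light damage for 29 of the 36 members (80.6%), beside 65.5% of all genes tested. Control replicates 1 and 4 had the most Aldoa, Eno1, Pkm and Ldha of the controls and also the highest rod marker sums, 98133 and 112613 CPM. Control replicates 2 and 3 had the least of these 4 genes, with rod sums of 87501 and 69502 CPM. The part of rod content in that spread was not tested, and these genes were picked after their values were seen.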
